A study of Mus musculus with 6 samples.

Results

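Adding S-adenosylmethionine (SAM) to mouse zygotes that were cultured with the serine-metabolism inhibitor CBR-5884 was examined by comparing 2 libraries that received both compounds (CBR+SAM) with 2 that received CBR-5884 alone (CBR). Genes were included when 2 or more of these 4 libraries had a value of 1 or more, which gave 11862 of the 36065 genes in the table. The embryos were wild-type 1-cell embryos in culture, and all 3 groups of the study were cultured alike: DMSO as the solvent control, CBR-5884, and CBR-5884 with SAM. Each group had 2 replicates, which the study calls biological, so the study holds 6 libraries. No group received SAM alone, every SAM library also carries the inhibitor, and strain, doses, culture times and the number of embryos per library are not given in the sources used here. A p-value here measures only the spread between these libraries.

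Serine feeds the folate cycle, in which carbon units are handed from serine hydroxymethyltransferases to tetrahydrofolate and from there to nucleotides or to homocysteine. Methionine made in that way, or taken up, is joined to ATP by methionine adenosyltransferase to give SAM, the methyl donor of the enzymes that methylate histones, DNA, RNA and small molecules. CBR-5884 is known as an inhibitor of phosphoglycerate dehydrogenase (Phgdh), the enzyme that commits a glycolytic intermediate to serine. A zygote still carries the mRNA of the oocyte, degrades part of it and starts a first, low-level transcription from its own genome, while histone methylation on the parental genomes is being rewritten.

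The values are length-normalised abundances whose columns summed to 994268 and 1004406 in CBR replicates 1 and 2 and to 998179 and 1059424 in CBR+SAM. From the steps between low values, the depth was estimated at 24.9 and 29.3 M reads for CBR, 28.0 and 29.1 M for CBR+SAM, and 28.4 and 23.0 M for DMSO. All 10 defining oocyte and zygote genes passed the filter, and their summed level was 42920 and 43930 in CBR and 40730 and 50310 in CBR+SAM. Dppa3, a maternal factor that protects DNA methylation, alone reached 14436 and 15271 in CBR and 13969 and 17885 in CBR+SAM. Of 30 cumulus and granulosa cell markers 5 passed the filter, Inha and Inhbb were at 0 in all 6 libraries, and the sum was 588.4 and 588.5 in CBR, 623 and 244.7 in CBR+SAM, and 539.4 and 515.7 in DMSO. Serpine2, a secreted protease inhibitor, made up nearly all of that sum. Sums of sperm markers (48.1 to 55.2), oviduct markers (10.5 to 13.4) and blood markers (1.98 to 2.60) in the 4 libraries were low. In such pooled RNA, fewer cells of a type and less RNA per cell cannot be told apart.

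The CBR+SAM replicates differed more from each other than those of the other groups. The SD across genes of the difference between replicates, on log2(value + 1), was 0.546 in CBR+SAM, against 0.402 in CBR and 0.397 in DMSO. This SD cannot tell which CBR+SAM replicate stood apart. Each replicate number is therefore given its own difference, CBR+SAM replicate 1 minus CBR replicate 1 and CBR+SAM replicate 2 minus CBR replicate 2, which have no library in common. Differences on log2(value + 1) understate the change of genes with low values.

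One record rose with SAM past the threshold of an adjusted p of 0.05 (limma, Benjamini-Hochberg over all genes tested), and none fell. It was Gm16550 (ENSMUSG00000089967), annotated as a processed pseudogene at chr1:165148824-165148949 on the minus strand in mm10. That is 0.00843% of the genes tested. The unadjusted p was under 0.05 for 369 genes, 3.11% of those tested, of which 206 were higher and 163 lower. Gm16550 is 126 bases long, and 125 of them (99.2%) are identical to positions 779 to 904 of the transcript of Dnajc9, which encodes a J-domain protein that acts as a histone chaperone. The stretch of Dnajc9 lies in coding sequence of exons 4 and 5 of 5, at chr14:20385365-20385811 on the minus strand with the intron between them included. The pair is shown because the single called record differs from a well expressed gene at 1 base only, which is in capitals. Sequences are from GENCODE M21, 5′ to 3′.
Gm16550: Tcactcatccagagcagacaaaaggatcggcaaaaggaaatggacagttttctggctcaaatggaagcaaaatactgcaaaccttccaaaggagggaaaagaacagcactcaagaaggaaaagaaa
Dnajc9: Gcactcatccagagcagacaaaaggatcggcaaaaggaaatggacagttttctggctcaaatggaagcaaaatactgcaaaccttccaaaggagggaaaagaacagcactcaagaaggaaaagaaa
Counted from the 5′ end of the stretch, the substitution from Dnajc9 to Gm16550 is G1T. Of the 96 words of 31 bases in Gm16550, the word length kallisto uses by default, 95 also occur in Dnajc9.

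Gm16550 was listed at 0 and 0.000873 in CBR replicates 1 and 2, at 8.34 and 8.59 in CBR+SAM, and at 0 in both DMSO libraries. Both CBR+SAM libraries were far above the other 4. The fitted difference was 3.24 on log2(value + 1) (SE 0.20, 95% interval 2.78 to 3.71, adjusted p = 0.00702, limma), with 3.22 in replicate 1 and 3.26 in replicate 2. Gm16550 is one of the 110 genes that passed the filter through the CBR+SAM libraries alone, so a difference was built into its entry, and without a filter its adjusted p was 0.121 (limma). The adjusted p was 0.107 without CBR+SAM replicate 2 and 0.171 or 0.173 without CBR replicate 1 or 2, where the call was lost, and 0.0302 without CBR+SAM replicate 1, where it held (limma). Dnajc9 itself stood at 123.5 and 132.6 in CBR and 126.7 and 106.4 in CBR+SAM, and these ranges overlap. The sum of both records was 123.5 and 132.6 in CBR and 135.0 and 115.0 in CBR+SAM, which overlap too. How reads were divided between the 2 records was not tested, and the value of Gm16550 is uncertain for that reason.

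The 2 replicate numbers gave largely different lists of genes. In replicate 1, 1230 genes (10.4%) differed by more than 0.5 on log2(value + 1), 649 of them higher and 581 lower with SAM. In replicate 2, 2654 genes (22.4%) did, 1352 higher and 1302 lower. The SD of the difference across genes was 0.357 in replicate 1 and 0.497 in replicate 2. Only 45.5% of genes had the same sign in both, and across the 11862 genes, which are not independent, the differences had a Pearson's r of -0.124. Differences of at least 0.5 in both were seen in 115 genes in the higher direction (0.969% of those tested) and in 78 in the lower (0.658%). Differences past 0.5 with opposite signs were seen in 117 genes that were higher in replicate 1 and lower in replicate 2, and in 138 that were lower and then higher.

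The replicate numbers differed in the same way among well expressed genes. In the 5941 genes whose mean over the 4 libraries was 10 or more, the SD was 0.286 in replicate 1 and 0.486 in replicate 2. There, 278 genes (4.68%) differed by more than 0.5 in replicate 1 and 1260 (21.2%) in replicate 2. Of the latter, 763 were lower and 497 higher with SAM. In both replicate numbers past 0.5 and in the same direction were 25 higher and 16 lower genes, beside 24 and 25 with opposite signs. For these genes the 95% interval of the fitted difference reached, at the median, 0.435 to either side, and 96.5% had a fitted difference within 0.5.

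**Figure D1:**
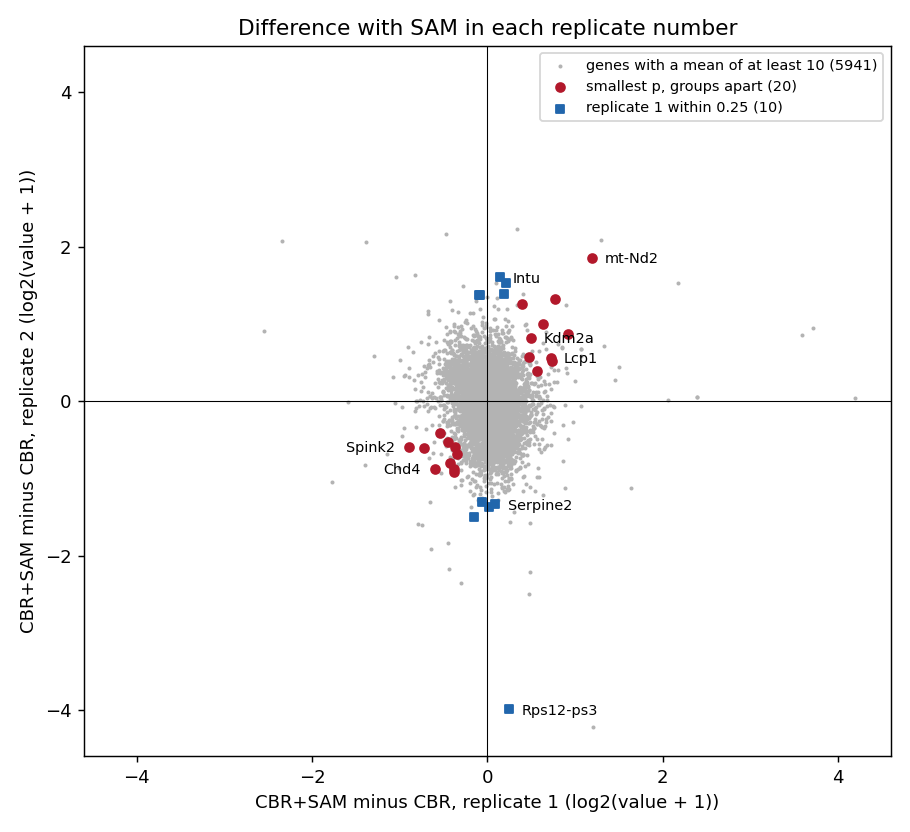
Each grey point is 1 of the 5941 genes whose mean was 10 or more, with the difference CBR+SAM minus CBR on log2(value + 1) in replicate 1 on the horizontal and in replicate 2 on the vertical axis, and 11 genes lie outside the plotted range. Red circles are the 20 named genes with the smallest p and groups that do not overlap, blue squares the 10 genes that were within 0.25 in replicate 1 and farthest apart in replicate 2, and the cloud is taller (SD 0.486) than it is wide (SD 0.286).

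Both CBR+SAM libraries lay above both CBR libraries for 1751 genes (14.8%) and below them for 1496 (12.6%). Of the genes described next, Gadd45g, Gadd45b, mt-Nd2, Kdm2a and Pbrm1 belong to a set that was fixed with earlier results of these data known. The genes other than Gadd45g and Gadd45b were also taken by their values. Some were taken by the size of p from the genes without overlap. Some were taken by the difference reached in both replicate numbers, whether or not the groups overlap. All these differences are therefore a description. None of the named genes besides Gm16550 passed the adjusted threshold: Gadd45g had an adjusted p of 0.129, and all other named genes that were tested had one between 0.991 and 0.995 (limma).

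Gadd45g, a stress-inducible gene of the growth arrest and DNA damage family, came closest. Its value was 1.17 and 0.765 in CBR, 7.70 and 6.45 in CBR+SAM, and 6.63 and 7.67 in DMSO. The CBR libraries were low, and the CBR+SAM libraries lay close to the DMSO libraries. Its fitted difference was 2.04 (SE 0.21, 95% interval 1.54 to 2.53, unadjusted p = 2.18e-05, limma), with 2.00 in replicate 1 and 2.08 in replicate 2. Its relative Gadd45b missed the filter and was listed at 0.309 and 0.522 in CBR, 0.906 and 1.14 in CBR+SAM, and 1.21 and 1.27 in DMSO.

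Among the genes higher with SAM in both replicate numbers was mt-Nd2, a mitochondrially encoded subunit of respiratory complex I. It stood at 928 and 622 in CBR, 2128 and 2254 in CBR+SAM, and 2173 and 1261 in DMSO. The fitted difference was 1.53 (SE 0.29, 95% interval 0.85 to 2.20, unadjusted p = 0.00104, limma). CBR replicate 2 was the lowest of the 6 libraries for this gene, and DMSO replicate 2 was below DMSO replicate 1. A copy outside the mitochondrial genome, Gm13339, holds 13.5% of the words of 31 bases of mt-Nd2.

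Lcp1, an actin-bundling protein, was at 82.5 and 94.1 in CBR, 136.9 and 139.5 in CBR+SAM, and 102.3 and 85.4 in DMSO. The CBR+SAM libraries were above the other 4, with differences of 0.72 and 0.56 in replicates 1 and 2 and a fitted 0.64 (95% interval 0.28 to 1.01). Kdm2a, a demethylase of histone H3 lysine 36, was at 49.1 and 53.2 in CBR, 69.8 and 94.8 in CBR+SAM, and 72.5 and 76.3 in DMSO. The CBR libraries were the lowest, and the fitted difference was 0.66 (95% interval 0.24 to 1.08). Cisd3, an iron-sulfur protein of mitochondria, was at 10.7 and 11.7 in CBR and 18.4 and 17.2 in CBR+SAM, with DMSO at 14.6 and 12.3. Fstl1, a secreted glycoprotein, was at 76.1 and 91.8 in CBR and 113 and 120.3 in CBR+SAM, with DMSO at 98.4 and 104.1. For both genes the DMSO libraries lay between the other groups.

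Rbm8a, a core protein of the exon junction complex, had 46.6 and 52.0 in CBR, 65.3 and 77.4 in CBR+SAM, and 55.4 and 62.2 in DMSO. Apeh, a peptidase that removes acetylated amino acids, had 8.04 and 9.88 in CBR and 13.0 and 20.8 in CBR+SAM. Bglap3, of the osteocalcin family, had 7.67 and 9.40 in CBR and 15.4 and 18.0 in CBR+SAM, and shares 22.5% of its words with other genes. These groups did not overlap, with fitted differences of 0.52, 0.82 and 0.89. Rpl10-ps3, a copy of the ribosomal protein gene Rpl10, went from 22.0 and 24.02 in CBR to 38.1 and 61.4 in CBR+SAM, but shares 96.6% of its words with other genes, so its value is uncertain. The pair Dcpp1 and Dcpp2 of the secreted demilune cell and parotid protein family also share 56.4% and 56.0% of their words with other genes. Dcpp2 was at 14.3 and 25.6 in CBR and 26.5 and 41.9 in CBR+SAM, and for Dcpp1 (7.58 and 17.2, against 12.7 and 28.1) the groups overlapped although each replicate number was higher by at least 0.67.

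Among the genes lower with SAM in both replicate numbers were 2 chromatin remodelling genes. Chd4, the ATPase of the NuRD complex, stood at 18.2 and 16.3 in CBR, 11.7 and 8.46 in CBR+SAM, and 15.2 and 15.9 in DMSO. The CBR+SAM libraries were the lowest of the 6, with differences of -0.60 and -0.87 and a fitted -0.74 (95% interval -1.20 to -0.28). Pbrm1, a bromodomain subunit of the PBAF complex, stood at 50.0 and 48.1 in CBR, 34.1 and 35.8 in CBR+SAM, and 34.5 and 33.4 in DMSO. Here the CBR libraries were the high ones and the CBR+SAM libraries lay close to DMSO, with differences from CBR of -0.54 in replicate 1 and -0.42 in replicate 2. Rac3, a small GTPase, was at 14.7 and 13.3 in CBR, 8.56 and 8.40 in CBR+SAM, and 12.7 in both DMSO libraries. It had the smallest p among the named genes that were lower (0.00457, limma, unadjusted), and the CBR+SAM libraries were below all others.

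Atg14, which directs the autophagy lipid kinase, was at 89.5 and 86.7 in CBR and 66.5 and 49.1 in CBR+SAM. Spink2, a serine protease inhibitor, was at 34.9 and 39.3 in CBR, 18.3 and 25.8 in CBR+SAM, and 27.2 and 20.3 in DMSO. Blvra, the enzyme that reduces biliverdin, was at 84.0 and 83.2 in CBR and 64.2 and 43.6 in CBR+SAM. The groups were apart for each, with fitted differences of -0.61, -0.74 and -0.65. Cryl1, a crystallin-related dehydrogenase, Zfp24, a zinc finger protein, Ccdc174 and Pdap1 had fitted differences between -0.63 and -0.49. For Zfp24 both replicate numbers were alike, at -0.45 and -0.54. Taldo1, transaldolase of the pentose phosphate pathway, was at 24.7 and 18.2 in CBR and 15.2 and 10.5 in CBR+SAM, with DMSO at 14.9 and 14.7. Manba, a lysosomal mannosidase, differed more between replicates than between groups, with 29.2 and 10.9 in CBR, 16.5 and 2.93 in CBR+SAM, and 31.7 and 7.62 in DMSO.

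**Figure D2:**
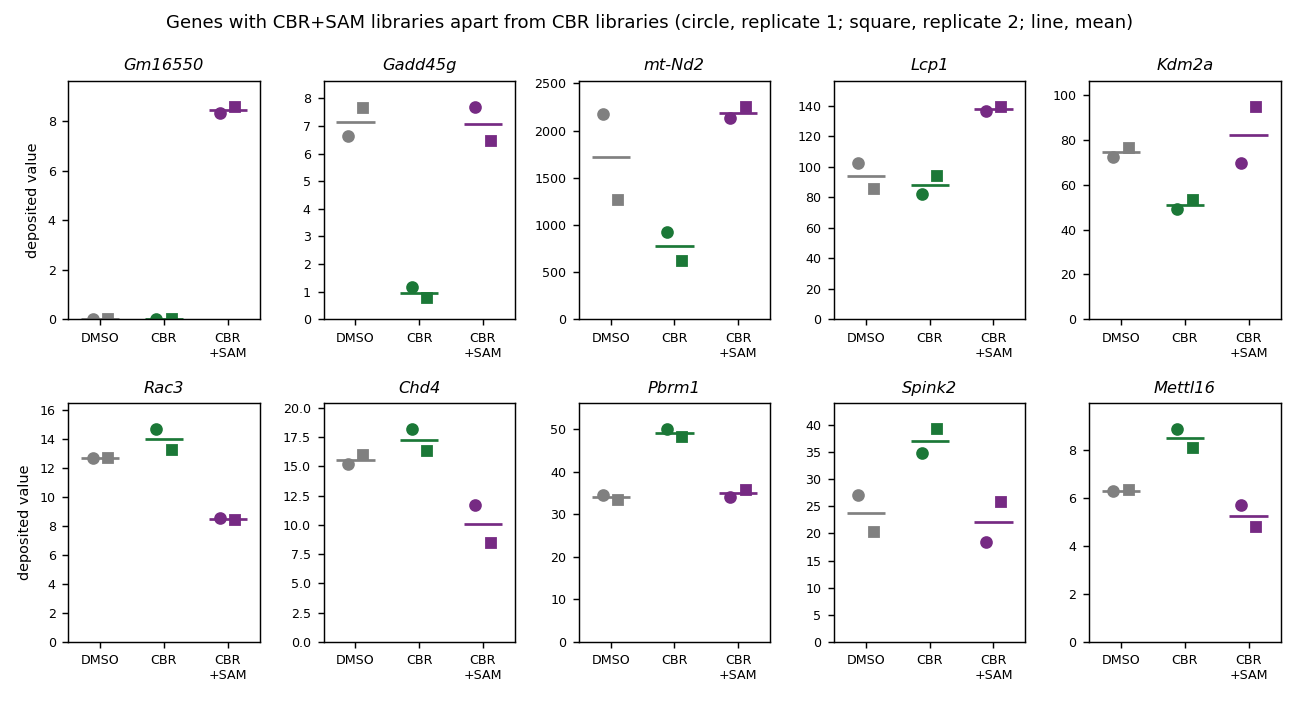
Deposited values in each of the 6 libraries for 10 genes whose CBR+SAM libraries lie apart from the CBR libraries, with replicate 1 as a circle, replicate 2 as a square and the mean of the 2 as a line, each panel starting at 0. Gm16550 was near 0 in DMSO and CBR, while for Gadd45g and Pbrm1 the CBR+SAM values (7.70 and 6.45, 34.1 and 35.8) lie beside those of DMSO (6.63 and 7.67, 34.5 and 33.4).

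The enzymes that make serine and hand its carbon to SAM were not called. Without overlap between the groups were 3 higher and 1 lower of 14 serine and glycine genes, 6 and 1 of 12 folate genes, and 7 and 3 of 27 methionine and SAM genes, beside 14.8% higher and 12.6% lower of all genes. No gene in any of the 29 lists described here passed the adjusted threshold. Phgdh, the target of the inhibitor, was low, at 4.81 and 4.28 in CBR, 4.29 and 6.05 in CBR+SAM, and 4.34 and 5.95 in DMSO. These groups overlap, and the interval of the fitted difference was -0.41 to 0.69. Phgdh shares 56.3% of its words with other genes, so its low value is uncertain. Psat1, the transaminase that follows, was at 0.258 or below in all 4 libraries and missed the filter. Psph, the phosphatase of the last step, was at 4.90 and 4.41 in CBR and 6.83 and 5.28 in CBR+SAM, with a fitted difference of 0.31 (95% interval -0.18 to 0.80). Psph shares 9.45% of its words with Cct6a, which was at 2887 and 2899 in CBR and 2259 and 3344 in CBR+SAM. The low value of Psph is therefore uncertain too. Of 14 serine and glycine genes tested 9 were higher in the fit, with 7 higher in each replicate number, and the median difference was 0.079 beside 0.013 over all genes. Sptlc2, a subunit of the enzyme that uses serine for sphingolipids, was at 150.8 and 180.9 in CBR and 187.8 and 251.2 in CBR+SAM.

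In the folate cycle 9 of 12 genes tested were higher in each replicate number, with medians of 0.052 in replicate 1 and 0.204 in replicate 2. In the direction of higher values 6 of these 12 did not overlap between groups, beside 14.8% of all genes. Mtfmt, which formylates the initiator tRNA of mitochondria, had the smallest p (0.0401, limma, unadjusted), with 33.9 and 30.7 in CBR, 41.8 and 43.1 in CBR+SAM, and 33.3 and 29.0 in DMSO. Both CBR+SAM libraries were above the rest. Shmt2 and Mthfd2, mitochondrial enzymes of this cycle, went the other way. Mthfd2 was at 125.5 and 122.9 in CBR and 118.7 and 100.2 in CBR+SAM, and Shmt2 at 14.9 and 16.2 against 11.9 and 14.0. Their fitted differences of -0.19 and -0.24 had intervals that included 0. The cytosolic Mthfd1 was at 8.63 and 6.95 in CBR and 8.85 and 8.65 in CBR+SAM. Shmt1 followed the replicate number and not the group, with 11.2 and 4.05 in CBR, 10.9 and 3.07 in CBR+SAM, and 8.48 and 3.07 in DMSO.

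In the methionine and SAM cycle 15 of 27 genes tested were higher in each replicate number, and the median difference was 0.016. Mat2a, the catalytic subunit of methionine adenosyltransferase, was at 38.2 and 47.2 in CBR and 41.2 and 29.8 in CBR+SAM. Its difference was 0.11 in replicate 1 and -0.65 in replicate 2, with a fitted interval of -0.74 to 0.20. Its regulatory partner Mat2b, one of the more abundant transcripts here, was at 1514 and 1567 in CBR and 1684 and 1287 in CBR+SAM, an overlap of the groups. Slc25a26, which carries SAM into mitochondria, was at 13.0 and 15.9 in CBR and 17.8 and 16.2 in CBR+SAM, with an interval of -0.18 to 0.63. Mtr, methionine synthase, was at 3.77 and 6.50 in CBR and 7.74 and 5.69 in CBR+SAM, and Ahcy, which clears the product of methyl transfer, missed the filter. Ahcy shares 71.4% of its words with other genes, mostly with Gm4737, so its low value is uncertain. Sat1, which acetylates polyamines, was at 60.7 and 76.2 in CBR and 85.1 and 97.1 in CBR+SAM, with a fitted 0.41 (95% interval 0.01 to 0.81). Oaz1, the antizyme that limits polyamine synthesis, was at 702 and 699 in CBR and 634 and 459 in CBR+SAM, and shares 24% of its words with other genes.

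Of the enzymes that spend SAM on small molecules, 9 of 12 tested were higher in the fit, but only 2 of 12 had the same sign in both replicate numbers. One of those was Hnmt, histamine methyltransferase, with 43.6 and 44.5 in CBR and 65.5 and 54.3 in CBR+SAM (fitted 0.43, 95% interval 0.03 to 0.83). The other was Pemt, which makes phosphatidylcholine, with 8.19 and 8.12 in CBR and 9.19 and 13.3 in CBR+SAM. Among RNA methyltransferases and m6A genes, 23 of 40 were lower in the fit, and 10 were lower without overlap, beside 12.6% of all genes. Mettl16, which methylates the Mat2a transcript and U6 RNA, stood at 8.90 and 8.10 in CBR, 5.72 and 4.82 in CBR+SAM, and 6.29 and 6.36 in DMSO. It was lower by 0.56 in replicate 1 and by 0.65 in replicate 2, with an interval of -1.03 to -0.18. Mettl2, a tRNA methyltransferase, was at 6.25 and 7.49 in CBR and 4.59 and 5.17 in CBR+SAM.

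Among the 40 histone methyltransferases tested, 23 were higher and 17 lower in the fit, and 15 had the same sign in both replicate numbers. Kmt5a, which places monomethylation on histone H4 lysine 20, had the smallest p (0.0320, limma, unadjusted), with 41.3 and 35.9 in CBR, 31.4 and 23.6 in CBR+SAM, and 31.8 and 32.2 in DMSO. The CBR libraries were the highest of the 6. The H3 lysine 9 methyltransferase Ehmt2 was low, at 4.05 and 3.62 in CBR and 3.16 and 2.95 in CBR+SAM, and DMSO was lower still at 1.70 and 1.43. Suv39h2, another enzyme of lysine 9, was at 95.5 and 93.0 in CBR and 104.1 and 81.9 in CBR+SAM, and Setdb1 at 29.3 and 25.6 against 26.5 and 30.3. For both genes the groups overlap, with intervals of -0.41 to 0.35 and -0.34 to 0.44.

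Ezh2, the lysine 27 methyltransferase of Polycomb, was at 636 and 553 in CBR and 535 and 779 in CBR+SAM. It was lower by 0.25 in replicate 1 and higher by 0.49 in replicate 2. Setd2, of lysine 36, also differed by replicate number, with -0.10 and 0.65, whereas Ezh1 was at 22.6 and 18.0 in CBR and 24.7 and 27.6 in CBR+SAM without overlap. Of 24 cofactors of histone methylation 7 were lower without overlap and 2 higher, beside 12.6% and 14.8% of all genes, among the former Jarid2, a Polycomb cofactor, with 39.9 and 38.9 in CBR, 34.0 and 30.6 in CBR+SAM, and 32.4 and 31.3 in DMSO. Histone demethylases other than Kdm2a gave 10 higher and 10 lower genes, with Kdm5b, of lysine 4, at 2.99 and 1.73 in CBR and 2.44 and 1.43 in CBR+SAM.

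For DNA methylation, 11 of 26 genes were higher in replicate 1 and 19 in replicate 2, and 8 had the same sign in both. Dnmt3a, a de novo methyltransferase, was at 37.4 and 32.5 in CBR, 43.3 and 43.5 in CBR+SAM, and 36.3 and 31.3 in DMSO. Its CBR+SAM libraries were above the other 4, with a fitted 0.31 and an interval of -0.07 to 0.68. Dnmt1, the maintenance enzyme, was at 124.1 and 157.8 in CBR and 136.7 and 107.4 in CBR+SAM, higher in replicate 1 and lower in replicate 2. Tet3, which oxidises methylcytosine in the zygote, was at 48.4 and 48.8 in CBR and 43.1 and 61.9 in CBR+SAM, which enclose the CBR values.

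Genes of genome activation had median differences of 0.109 and -0.013 in replicate 1, for the early and the later list. Among 24 genes that mark the 2-cell stage and minor activation, 16 were higher in replicate 1 and 15 in replicate 2, with a median of 0.093 in the fit. Obox7, an oocyte and zygote homeobox gene, was at 479 and 616 in CBR, 617 and 857 in CBR+SAM, and 531 and 602 in DMSO, and shares 44.9% of its words with other Obox genes and copies. Zscan4d, of the 2-cell Zscan4 cluster, was at 7.51 and 5.91 in CBR and 6.44 and 8.36 in CBR+SAM, and Ubtfl1 was at 1.24 and 1.44 against 0.855 and 1.5. Both overlap between groups, and Zscan4d shares 65.0% of its words. The list of 50 major activation genes, mostly of ribosome assembly, was lower in 36 genes in the fit, with medians of -0.013 in replicate 1 and -0.254 in replicate 2. Nop56, a box C/D snoRNP protein, shows it: 92.1 and 91.8 in CBR, 82.2 and 38.8 in CBR+SAM, and 79.2 and 83.7 in DMSO. Nop56 shares 22.4% of its words with other genes. Gnl3, a nucleolar GTPase, was lower in both, with 169.6 and 159.5 in CBR and 135.1 and 134.3 in CBR+SAM. Of 46 oocyte and maternal-effect genes 31 were higher in the fit, and the median was 0.071.

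Damage and stress genes held single genes that were apart in both replicate numbers. Of 83 DNA damage response and repair genes 50 were lower in the fit. Nhej1, a factor of end joining, was at 23.7 and 29.3 in CBR, 36.4 and 39.3 in CBR+SAM, and 29.3 and 30.3 in DMSO, and Pms2, of mismatch repair, was at 8.67 and 8.06 in CBR and 5.72 and 4.95 in CBR+SAM. The groups were apart for both, in opposite directions. Of 27 p53 targets and apoptosis genes 17 were higher, but Bcl2l1 and Mdm2, an inhibitor of apoptosis and the ubiquitin ligase of p53, were lower, at 26.7 and 25.9 against 19.97 and 21.6 and at 53.6 and 50.5 against 45.8 and 39.1. Ppp1r15a, the phosphatase subunit that ends the integrated stress response, was at 17.9 and 19.0 in CBR, 12.3 and 13.0 in CBR+SAM, and 15.3 and 12.2 in DMSO, with differences of -0.50 and -0.52. Among 43 heat shock and chaperone genes 22 were higher in replicate 1 and only 6 in replicate 2. Hspa5, the chaperone of the endoplasmic reticulum, was at 66.3 and 70.5 in CBR and 60.4 and 40.1 in CBR+SAM. Hspb1, a small heat shock protein, was lower in both, with 11.1 and 10.1 in CBR, 7.14 and 6.12 in CBR+SAM, and 10.4 and 6.17 in DMSO, and shares 55.4% of its words, mostly with a pseudogene.

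A further 8 lists, of metabolism, the cell cycle and protein and RNA turnover among others, had fitted medians between -0.099 and 0.055, beside 0.013 over all genes. Of 48 glycolysis and citric acid cycle genes 25 were higher and 23 lower in the fit, of 61 cell cycle genes 28 and 33, of 33 histone variants and chaperones 14 and 19, of 39 proteasome genes 21 and 18, and of 275 Zfp-named zinc finger genes 140 and 135. Antioxidant genes were higher in 20 of 29 in replicate 1 and in 14 in replicate 2, nucleotide synthesis genes in 17 of 25 and then in 10, and factors of maternal mRNA decay in 19 of 38 and then in 16. Single genes among them were apart in both replicate numbers. Ldha, lactate dehydrogenase, was low, at 3.27 and 2.90 in CBR, 1.53 and 1.35 in CBR+SAM, and 3.48 and 1.39 in DMSO, where the DMSO libraries spanned both groups. Psmd10, a proteasome assembly factor, was at 62.1 and 66.3 in CBR, 85.1 and 77.6 in CBR+SAM, and 77.4 and 78.3 in DMSO. Zfp27, a zinc finger protein, was at 1.45 and 1.20 in CBR, 2.56 and 2.54 in CBR+SAM, and 2.35 and 2.24 in DMSO. For Psmd10 and Zfp27 the CBR libraries were the lowest of the 6. Impdh2, of guanine nucleotide synthesis, was at 1.14 and 0.841 in CBR and 1.5 and 3.68 in CBR+SAM, and shares 43.7% of its words with copies.

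**Figure D3:**
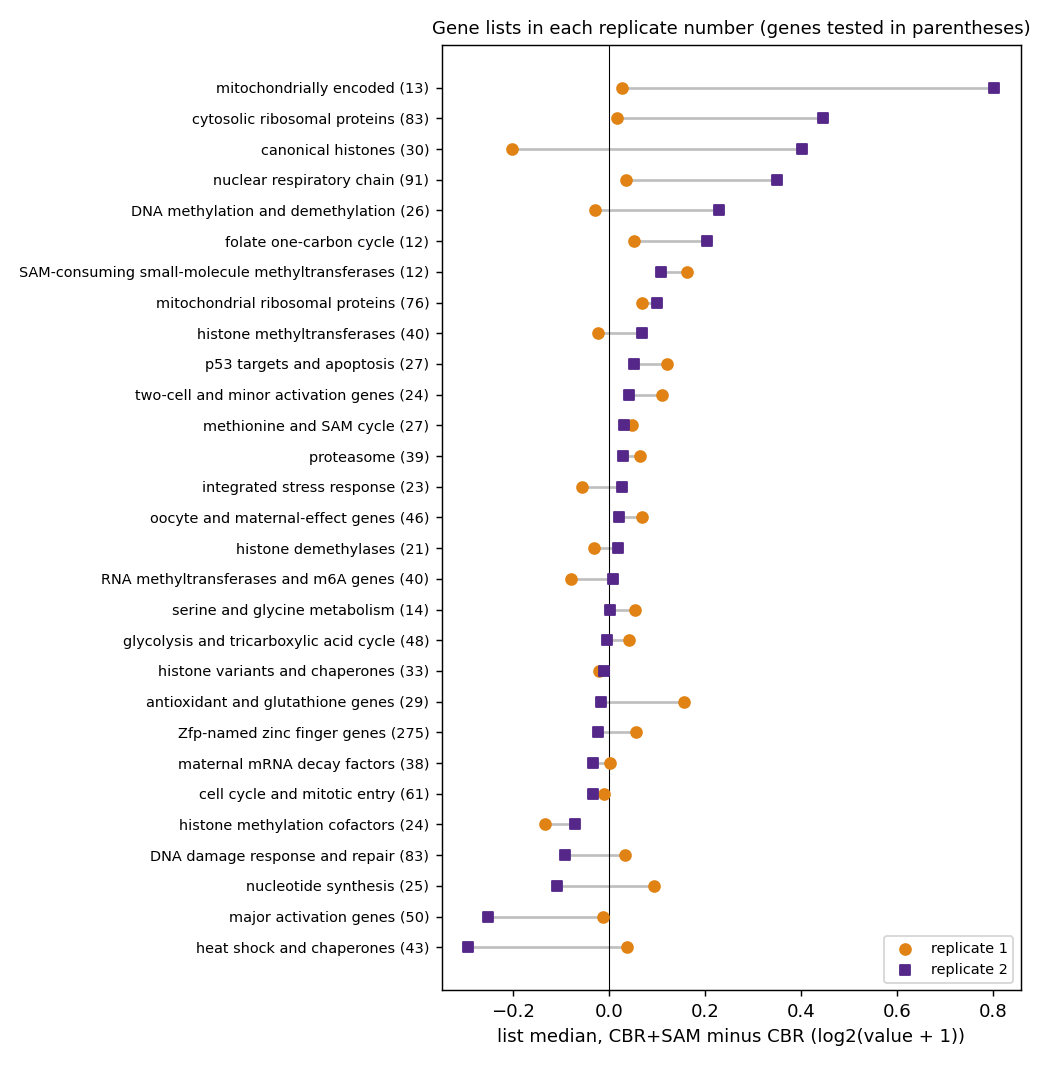
Median difference CBR+SAM minus CBR on log2(value + 1) of each of the 29 gene lists, with replicate 1 as an orange circle and replicate 2 as a purple square, and the number of genes tested in parentheses. Replicate 1 medians stay between -0.203 and 0.163, while replicate 2 medians run from -0.294 for heat shock and chaperones to 0.803 for the mitochondrially encoded genes.

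The lists that differed most between the groups did so in replicate 2. Of the 13 mitochondrially encoded genes 8 were higher in replicate 1 and 12 in replicate 2, with medians of 0.027 and 0.803. Their sum was 59980 and 44640 in CBR, 54080 and 76710 in CBR+SAM, and 60680 and 36600 in DMSO. CBR+SAM replicate 2 was the highest library and the replicate 2 libraries of the other groups were the lowest. In 8 of the 13 both CBR+SAM libraries were above both CBR libraries, beside 14.8% of all genes. In 1, mt-Nd4l of complex I, both were below, beside 12.6% of all genes. It was at 1722 and 1383 in CBR and 979.5 and 1100.0 in CBR+SAM, with 98.9% of its words shared with Gm10222. After mt-Nd2, the smallest p was that of mt-Cytb of complex III, at 3134 and 2905 in CBR, 4138 and 6949 in CBR+SAM, and 4439 and 3592 in DMSO. A number of these genes have near-complete copies in the nuclear genome: mt-Nd3 shares 98.1% of its words with Gm28438, mt-Co3 99.9% with Gm28437 and mt-Atp6 99.5% with Gm10925. Together, mt-Nd3 and Gm28438 were at 1222 and 1015 in CBR, 1981 and 3446 in CBR+SAM, and 2344 and 1487 in DMSO. That sum did not overlap between CBR and CBR+SAM. The sum of mt-Co3 and Gm28437 was 10950 and 9477 in CBR and 8779 and 13300 in CBR+SAM, and that of mt-Atp6 and Gm10925 was 17590 and 11770 in CBR and 14790 and 20510 in CBR+SAM. Both of these overlap, and both were lower with SAM in replicate 1 and higher in replicate 2.

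Of the 83 cytosolic ribosomal protein genes 44 were higher in replicate 1 and 75 in replicate 2, with medians of 0.016 and 0.445. Their sum was 6763 and 6456 in CBR, 6207 and 8392 in CBR+SAM, and 6638 and 6702 in DMSO, so CBR+SAM replicate 1 was the lowest and replicate 2 the highest of the 6 libraries. Rpl7a, of the large subunit, was higher in both, with 36.4 and 34.6 in CBR, 46.1 and 51.3 in CBR+SAM, and 49.2 and 39.8 in DMSO, and shares 45.1% of its words with copies. Rpsa, of the small subunit, was low, at 0.559 and 0.557 in CBR and 1.30 and 2.30 in CBR+SAM. Like Gm16550, it passed the filter through the CBR+SAM libraries alone, so a difference was built into its entry. It also shares 31.2% of its words with other genes. The 91 nuclear genes of the respiratory chain were also higher mainly in replicate 2: 54 were higher in replicate 1 and 81 in replicate 2, with sums of 11110 and 11220 in CBR and 11030 and 14230 in CBR+SAM. Cyc1, cytochrome c1, was an exception, at 2.68 and 2.29 in CBR and 1.64 and 1.26 in CBR+SAM. Mitochondrial ribosomal proteins were higher in 55 of 76 genes in replicate 1 and in 48 in replicate 2, and Mrpl11 was at 9.52 and 10.3 in CBR and 13.8 and 15.3 in CBR+SAM.

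Canonical histone genes differed in sign between the replicate numbers. Of 30 tested, 7 were higher in replicate 1 and 26 in replicate 2, with medians of -0.203 and 0.403. Their sum was 526.5 and 523.9 in CBR, 462.4 and 725.6 in CBR+SAM, and 505.6 and 631.9 in DMSO. Hist1h2bk, a histone H2B gene, was at 67.6 and 56.9 in CBR and 55.7 and 85.7 in CBR+SAM, and Hist1h2ba, the testis-type H2B, at 49.1 and 42.9 against 35.9 and 72.3, both named after their values were seen. CBR+SAM replicate 1 was below both CBR libraries and replicate 2 above them. Hist1h2bh was higher in both, at 39.0 and 33.6 in CBR and 43.1 and 57.6 in CBR+SAM, and shares 29.2% of its words with other genes. The cumulus marker sum was 588.4 and 588.5 in CBR and 623 and 244.7 in CBR+SAM. Serpine2 alone was at 566.9 and 567.8 in CBR and 602 and 224.5 in CBR+SAM. The low marker sum of CBR+SAM replicate 2 was thus that of Serpine2 and not of the other markers. In that library the mitochondrial, ribosomal and histone sums were the highest. Whether the low Serpine2 value is linked to those sums was not tested.

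**Figure D4:**
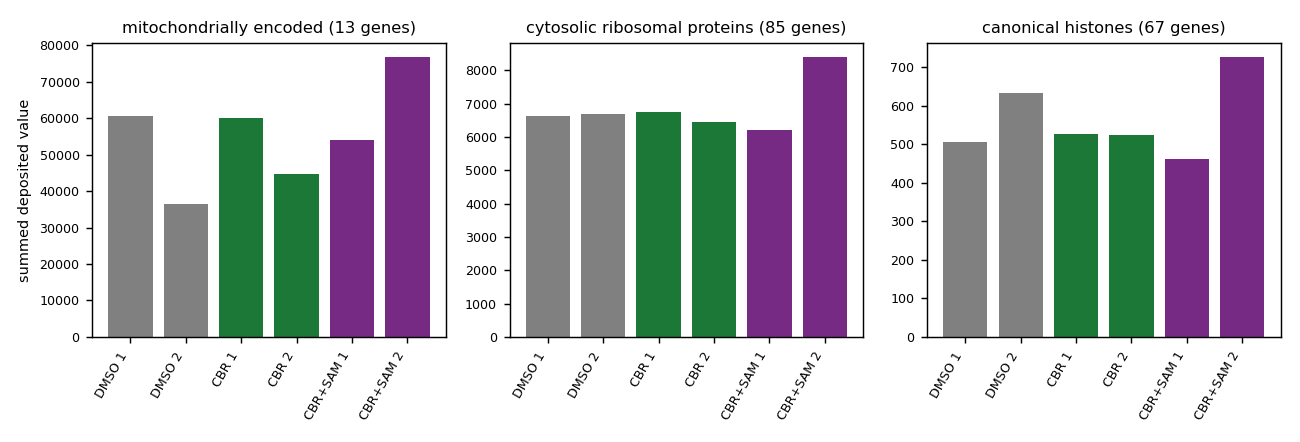
Summed deposited values per library of the mitochondrially encoded genes (13), the cytosolic ribosomal protein genes (85, of which 83 were tested) and the canonical histone genes (67, of which 30 were tested), as bars from 0. CBR+SAM replicate 2 was the highest bar in each panel (76710, 8392 and 725.6), and CBR+SAM replicate 1 was not above both CBR libraries in any.

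A group of well expressed genes differed in replicate 2 alone. They were chosen for that pattern, with a replicate 1 difference within 0.25, so the pattern itself is a description. Prom1, a membrane glycoprotein, was at 251.8 and 218.7 in CBR, 288 and 573 in CBR+SAM, and 281 and 214 in DMSO. Intu, a planar cell polarity effector of cilia, was at 70.0 and 51.9 in CBR, 77.3 and 159.8 in CBR+SAM, and 74.4 and 52.0 in DMSO. For both genes CBR+SAM replicate 2 lay above the other 5 libraries. The chemokine Ccl2 differed in another way: it was at 20.6 and 6.75 in CBR, 19.4 and 19.1 in CBR+SAM, and 19.1 and 7.84 in DMSO, so that the replicate 2 libraries of CBR and DMSO were low.

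In the lower direction, Serpine2 was at 567 and 568 in CBR, 602 and 224.5 in CBR+SAM, and 524 and 496 in DMSO. Nfya, the DNA-binding subunit of NF-Y, a factor with a part in early genome activation, was at 72.6 and 81.6 in CBR, 65.2 and 28.2 in CBR+SAM, and 74.6 and 62.6 in DMSO. Rrp1b, a nucleolar protein, was at 70.5 and 78.5 in CBR and 67.3 and 31 in CBR+SAM. Atl1, which shapes the endoplasmic reticulum, was at 78.9 and 93.3 in CBR and 79.7 and 35.3 in CBR+SAM, and shares 21.6% of its words with other genes. In each of these 4 genes CBR+SAM replicate 2 was the lowest of the 6 libraries. Rps12-ps3, at 13.0 and 18.2 in CBR and 15.6 and 0.208 in CBR+SAM, shares all its words with Rps12 and copies, and is uncertain.

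When CBR+SAM replicate 1 was left out, so that replicate 2 stood for its group and was assumed to vary like the other groups, 2341 genes had an unadjusted p under 0.05 and 9 passed the adjusted threshold (limma). Besides Gm16550 these were 6 predicted records together with Serpine2 (adjusted p = 0.0328) and Asdurf (adjusted p = 0.0255), the upstream reading frame of Asnsd1, at 75.8 and 74.1 in CBR and 55.3 and 20.1 in CBR+SAM. With CBR+SAM replicate 2 left out, 455 genes had an unadjusted p under 0.05. The 9 records are named after their values were seen.

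**Figure D5:**
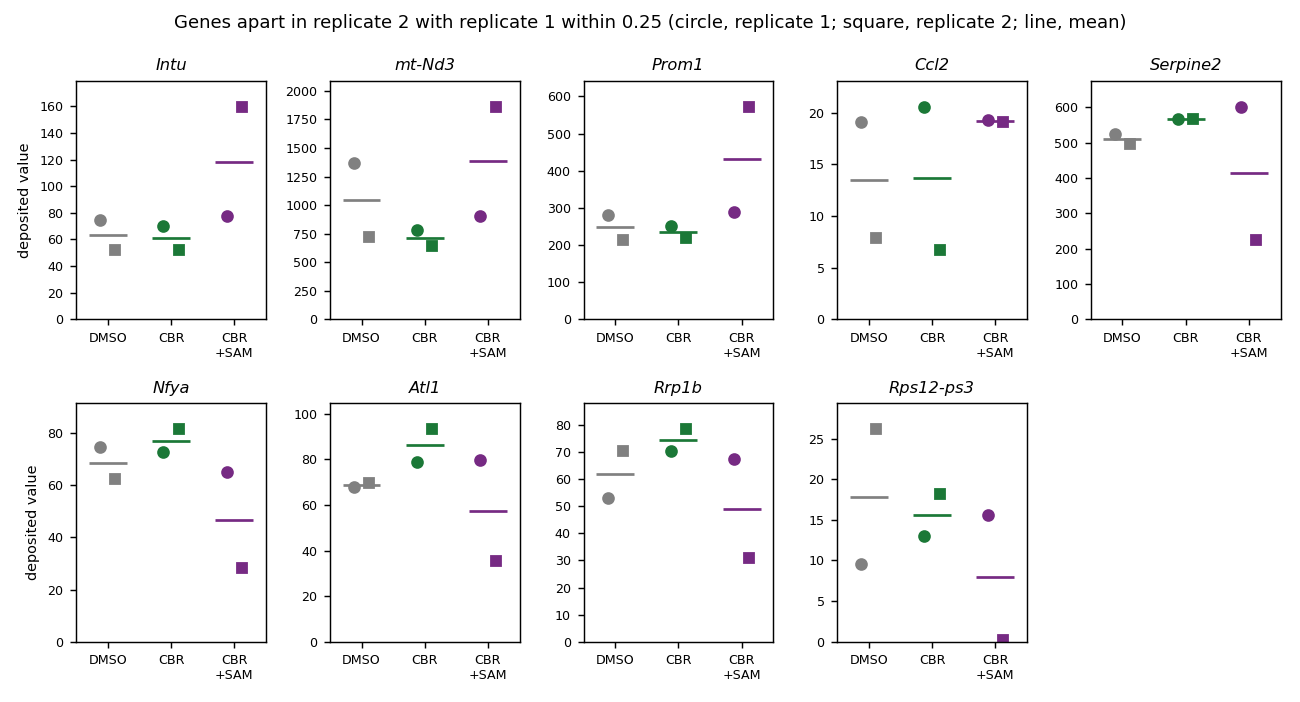
Deposited values in each of the 6 libraries for 9 genes chosen for a replicate 1 difference within 0.25 and the largest replicate 2 differences, the first 4 higher and the other 5 lower, with replicate 1 as a circle, replicate 2 as a square and the mean as a line. The square of CBR+SAM is the extreme point in most panels, for example at 573 for Prom1 and 224.5 for Serpine2, while for Ccl2 the squares of DMSO and CBR are the low points (7.84 and 6.75).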

How the data were processed

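The gene table deposited by the authors gives 1 signal value per gene and library, an abundance that is divided by length. Tools named by the submitters' processing notes are fastp, kallisto and DESeq2, with the build mm10 and without versions or roles, and a further scaling step is not given in the sources used here. Per the labels' protocols, SMART-Seq v4 was used for cDNA and Nextera XT for libraries, and neither strand marking nor molecular identifiers are described. Read counts were not used here. Depth was estimated from steps between low values: 80.8% to 82.5% of them lay within 0.1 of a whole read, and smaller steps would also give whole reads. Symbols and coordinates came from GENCODE M21 (35820 of 36065 records matched).

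Values were taken as log2(value + 1), for genes that reached 1 in 2 or more of the 4 libraries, and limma 3.58.1 (R 4.3.3) was fitted to all 6 libraries, with a trend of variance on mean, which left 3 residual degrees of freedom. P-values were adjusted by Benjamini-Hochberg with a threshold of 0.05. Of the 11862 genes tested, 10599 reached 1 in all 4 libraries, 110 passed through the CBR+SAM libraries alone and 53 through the CBR libraries alone. The test was checked on simulated data in which all groups had the same spread for a gene and genes were independent. The CBR+SAM replicates differed more from each other than those of the other groups, so the check does not cover that feature. Members, lists and the naming rule were chosen with earlier results of these data known. Some genes chosen by the rule are not reported here. Named were the called genes, per direction the 10 with the smallest p and the 5 with the largest difference in both replicate numbers (mean of at least 10), the 5 with the largest replicate 2 difference where replicate 1 was within 0.25, a set of pathway genes, and from each list the 2 genes of smallest p. Sharing between genes was counted over words of 31 bases in the M21 transcripts, and 22 of the 113 named genes shared more than 20% of theirs. Alternatives were other pseudocounts, filters and scalings, array weights, a replicate block, the 4 libraries alone, protein-coding genes alone, and leaving out each library.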

Additional observations from a re-analysis of the deposited data

How the results depend on the processing

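The single call, Gm16550, depended on the processing. Its adjusted p (limma) was 0.154 with a pseudocount of 0.1 and 0.121 without a filter, and no gene was called under either, nor with a mean of at least 10 or with protein-coding genes alone, which leave Gm16550 out. With 1 library left out, 0 to 9 genes were called. The count at an unadjusted p under 0.05, 369, was 1000 without a filter, where 24665 genes were tested, 142 with a mean of at least 10, where 5941 were, and 228 with array weights. It ran from 231 without CBR replicate 1 to 2341 without CBR+SAM replicate 1. The share of genes with the same sign in both replicate numbers was 44.2% with a mean of at least 10, against 45.5%. Of 628 recomputed values of 40 named genes, 5, all of Gm16550, lost the call. None changed direction, but this could hardly be otherwise, since the groups did not overlap for any of the 40. Leaving out a library or changing the pseudocount or the filter could not reverse such a difference.

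With 2 replicate numbers and no label that ties them to a shared day or litter, the numbers were not taken to pair the libraries. The deviations of libraries with the same number had a correlation of 0.093 between CBR and CBR+SAM, 0.405 between DMSO and CBR and 0.221 between DMSO and CBR+SAM, and 0.102, 0.555 and 0.24 with a mean of at least 10. With a replicate block 537 genes had an unadjusted p under 0.05, of which 343 were among the 369, and 1 gene was called. With 2 libraries a group, the unadjusted 95% interval had a half-width of 0.5 at the median gene. For a gene with such an interval, smaller differences could not be resolved.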
